A study of Mus musculus with 4 samples.

Results

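Transcripts that mark white blood cells were followed in mouse small intestinal crypts and in the organoids grown from them. A list of 43 marker genes was matched to the gene names printed in the scanner files, and 42 of the 43 were found among 28632 gene names. Cytip was not found under its listed name and was reached only through its RefSeq accession, so it is described apart and enters no count. The 42 genes comprised 15 markers of T and natural killer (NK) cells, 8 of B and plasma cells, 9 of myeloid cells and 10 shared by most leukocytes. They are represented by 69 probes, and 20 of the genes have more than 1 probe.

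The study set freshly isolated crypts against organoids from the same animals. Small intestinal crypts of 2 mice were each split into a portion for direct RNA isolation and a portion kept in culture for 1 week before RNA isolation. Crypts, the epithelial pits that contain the stem cells, had been released with 2 mM EDTA, passed through a 70 µm strainer and spun slowly to leave single cells behind. The cultured portion was embedded in Matrigel and fed with the growth factors EGF (10 to 50 ng/ml), R-spondin (500 ng/ml) and Noggin (100 ng/ml), with no lymphocyte growth factor named in the labels. The strain, age and sex of the mice are not given in the sources used here, no genetic alteration is named, and the crypt preparation is described by its submitters as nearly free of other material. Each array, an Agilent dual-dye expression array for the mouse genome, compared both RNAs of 1 mouse, and another array repeated that comparison with Cy3 and Cy5 exchanged. The 4 arrays therefore hold 2 mice, the 2 arrays of a mouse are technical repeats, and n = 2 mice for every SD and the main test. Alternative fits that entered all 4 arrays are the exception.

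The gut epithelium normally houses many leukocytes. Intraepithelial lymphocytes, mostly CD8 T cells with a cytotoxic programme, sit between the epithelial cells and carry granzymes, the chemokine CCL5 and the beta chain of the interleukin-2 and interleukin-15 receptors. Plasma cells of the underlying lamina propria secrete dimeric IgA joined by the J chain, and macrophages of the same layer are marked by lysozyme M, complement C1q and the colony-stimulating factor receptor. Antigen receptors pass their signal through immunoreceptor tyrosine-based activation motifs in CD3, CD79 or adaptor chains, which kinases such as LCK and ZAP70 then bind or phosphorylate.

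The array reads each gene through oligonucleotides of 60 bases, and 8 of them are shown because the contrasts below turn on them: CD3 chains and the kinase that docks on them, an effector gene and an antibody gene that fell, a B cell receptor chain that gave no call, an adaptor too dim to test, and a gene whose probes disagreed. All are copied from the deposited scanner files, and each keeps at least 1 reading frame open over its length. Capitals mark the codons of a tyrosine, any 2 amino acids and a leucine, the core of the activation motif, found by translating the open frames. The Cd3d probe holds 2 such stretches, the Tyrobp probe 1 and the others none. The Lyz2 oligonucleotide is the dimmer of the pair of probes for that gene.
Cd3d: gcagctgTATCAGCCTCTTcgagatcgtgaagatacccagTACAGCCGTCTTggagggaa
Cd3g: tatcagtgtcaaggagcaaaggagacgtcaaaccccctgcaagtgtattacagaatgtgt
Zap70: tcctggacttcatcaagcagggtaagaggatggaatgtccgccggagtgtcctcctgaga
Gzma: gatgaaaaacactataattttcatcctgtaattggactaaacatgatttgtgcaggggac
Cd79a: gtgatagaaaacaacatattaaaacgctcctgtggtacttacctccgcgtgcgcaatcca
Igh-2: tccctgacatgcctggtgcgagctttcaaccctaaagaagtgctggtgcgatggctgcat
Tyrobp: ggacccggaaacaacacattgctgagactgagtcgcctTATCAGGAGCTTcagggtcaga
Lyz2: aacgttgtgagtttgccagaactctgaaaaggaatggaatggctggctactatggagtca
Some of these oligonucleotides are split over the genome. In mm9, the build of the probe positions in the files, the Cd3d probe spans 232 bases, the Cd3g probe 585, the Cd79a probe 258 and the Tyrobp probe 1728, all longer than the 60 bases of the oligonucleotide. The Gzma, Igh-2, Zap70 and Lyz2 probes each lie in 1 stretch of 60 bases.

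By the scanner software's own mark of a signal well above background, 53.7% to 67.1% of probes per array were detected in crypts and 51.4% to 61.7% in organoids. These shares went with the dye. Crypts had 53.7% and 55.7% in Cy3 and 67.1% and 62.7% in Cy5, and organoids had 53.9% and 51.4% in Cy3 and 61.7% and 60.3% in Cy5. Median signals were 161 to 178 in Cy3 and 266 to 312 in Cy5. The number of arrays and mice limits the precision of every value. Because the samples are bulk RNA, fewer leukocytes, less RNA per leukocyte and a change in the RNA of other cells cannot be told apart in any result that follows.

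Most of the marker genes gave a signal in crypts, and fewer did in organoids. Of the 42 genes, 35 were well above background in all 4 crypt channels (83.3%, against 53.2% of all gene names) and 23 in all 4 organoid channels (54.8%, against 51.5%). With the scanner's mark of a positive and significant signal in place of this mark, the counts were 41 and 35. The share of all gene names under that other mark is not given here. The T and NK markers showed the widest gap, with 13 of 15 detected in all crypt channels and 5 of 15 in all organoid channels. B and plasma cell markers were detected in 6 of 8 in either tissue, myeloid markers in 6 of 9 in either tissue, and shared markers in 10 of 10 crypt and 6 of 10 organoid sets. Cd3d, Cd3g, Igj, Cd52 and Srgn were marked in all 4 crypt channels and in no organoid channel. That pattern was seen for 52 of all 28632 gene names (0.182%). Emr1, an adhesion receptor gene of macrophages, was the only listed gene marked in no channel of either tissue.

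Entry to the test required a probe detected on every array in at least 1 of the tissues, which held for 36 of the 42 genes. Cd160, Cd2, Ms4a1, C1qa, Emr1 and Tyrobp did not enter. For 13 of the 36, the crypt channels alone met the filter, so a lower organoid value was built into their selection and no weight is placed on how many of them passed. Values below are log2 ratios of organoid over crypt, given as the mean of both mice ± SD, and a gene passed when limma's Benjamini-Hochberg adjusted p over all 15541 genes was under 0.05. By this test 13 of the 36 genes fell, where 5.49% of all genes tested fell, and 1 rose, where 5.43% of all genes tested rose. The other 22 did not pass. Among the 22 marker genes well above background in all 8 channels, for which the filter favours neither tissue, 4 fell (Ccl5, Cd7, Igh-2 and Lyz2), against 5.44% of all genes with that property. The median over the 36 genes was -0.32, beside 0.02 over all genes tested. With ratios computed by the scanner software the median of these markers was -0.93, and in the authors' deposited matrix it was -0.96.

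**Figure D1:**
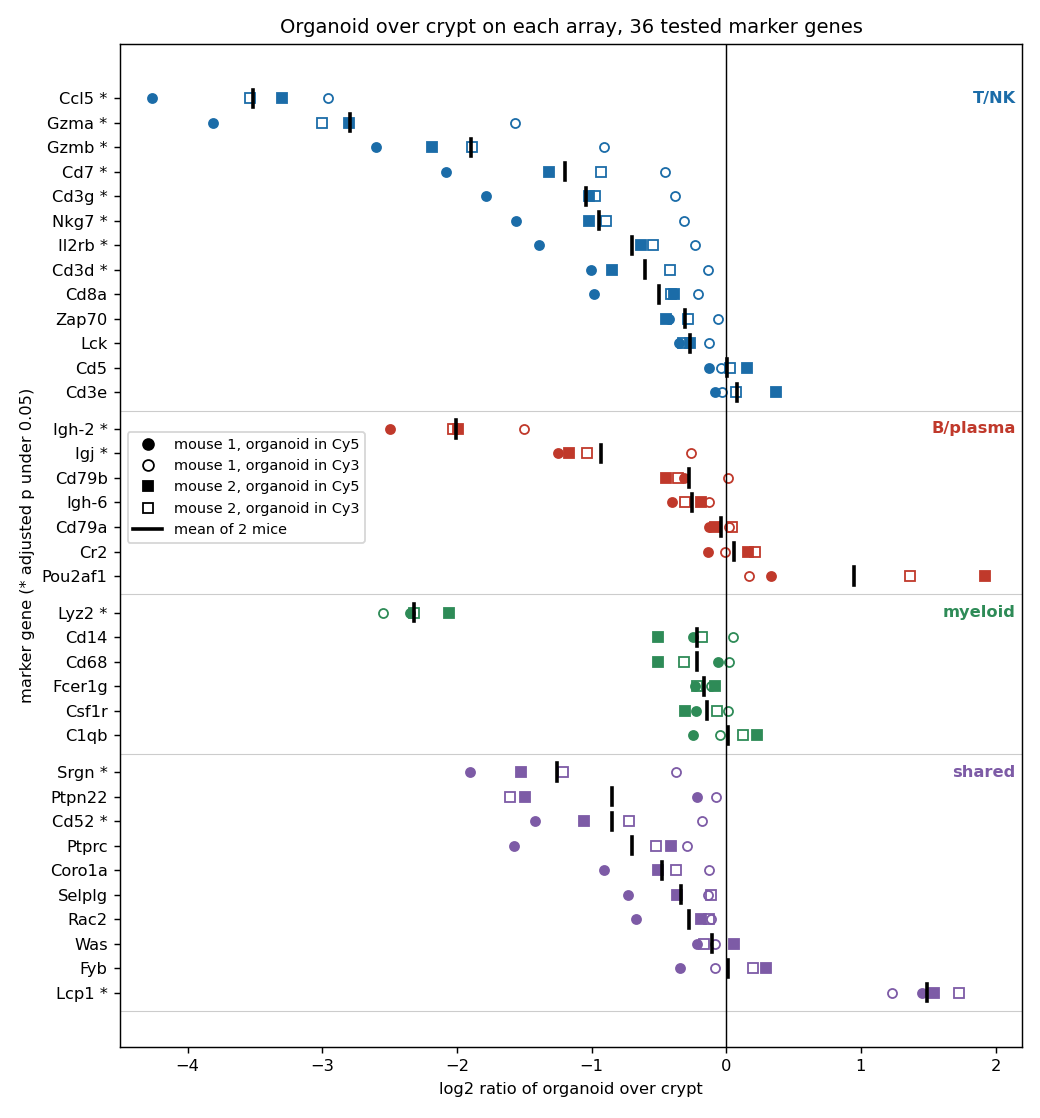
Log2 ratio of organoid over crypt (horizontal axis) on each of the 4 arrays for the 36 tested marker genes, grouped by lineage; circles are mouse 1, squares mouse 2, filled symbols the array with organoid RNA in Cy5, open symbols the array with it in Cy3, and the bar is the mean of the 2 mice. T and NK genes run from -3.51 for Ccl5 to 0.08 for Cd3e, and Lcp1 lies above 0 on all arrays.

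Ccl5 and Gzma, effector genes of cytotoxic lymphocytes, had the lowest ratios of the tested marker genes. Of 13 tested T and NK markers 8 fell and 0 rose, and the median was -0.70. For 8 of the 13 the crypt channels alone met the filter, so a low value was built into this count and median. The median was -0.27 over the 5 genes above background in all 8 channels, -0.39 with organoid RNA in Cy3 alone and -2.30 with the scanner software's ratio. Per-array ratios are given here and below in the order mouse 1 with organoid RNA in Cy5, mouse 1 in Cy3, mouse 2 in Cy5 and mouse 2 in Cy3. Ccl5, the chemokine of activated and memory CD8 T cells (chromosome 11, 83339296 to 83339355), had ratios of -4.26, -2.96, -3.30 and -3.53. Its normalized log2 signal was 11.58 to 12.63 in the crypt channels and 8.24 to 9.07 in the organoid channels. The channels of the tissues lay far apart, and the gene stayed well above background in every organoid channel. Ccl5 was thus 11.4-fold lower in organoids (-3.51 ± 0.14, limma adjusted p = 0.00123), and its second, dimmer probe read -2.79.

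Gzma encodes granzyme A, a protease that cytotoxic granules deliver into target cells (chromosome 13, 113885986 to 113886045). Its ratios were -3.81, -1.57, -2.80 and -3.0, from crypt signals of 9.81 to 10.73 and organoid signals of 6.92 to 8.24. The highest organoid channel, that of mouse 1 in Cy3, still lay below every crypt channel. Gzma was 6.95-fold lower in organoids (-2.80 ± 0.15, limma adjusted p = 0.00158) on this scale, but only 1 of its 4 organoid channels was marked above background. The size of the fall is therefore poorly set, and the authors' deposited matrix gave -5.72.

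Gzmb, the gene of granzyme B, a caspase-activating granule protease (chromosome 14, 56877916 to 56877975), had ratios of -2.60, -0.91, -2.19 and -1.89. Crypt signals of 9.04 to 9.78 did not overlap organoid signals of 7.17 to 8.13. The fall was 3.73-fold (-1.90 ± 0.20, limma adjusted p = 0.00358), and it reached -3.82 in the deposited matrix. Gzmb was marked in 3 of 4 organoid channels, so the crypt channels alone met the filter. With the organoid-in-Cy3 arrays alone Gzmb no longer passed. Nkg7, a granule membrane protein of NK and cytotoxic T cells, fell by 0.95 on the log2 scale (SD 0.01, limma adjusted p = 0.0148), with arrays between -1.56 and -0.31. Nkg7 was marked in 2 of 4 organoid channels, and its deposited matrix value was -2.32.

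**Figure D2:**
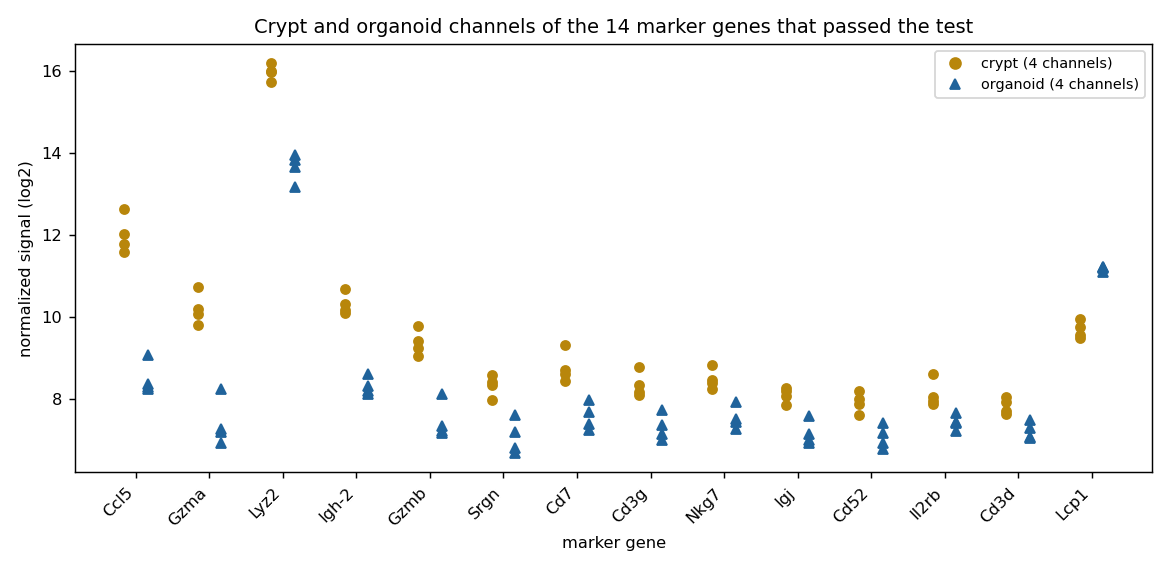
Normalized log2 signal (vertical axis) of the 14 marker genes that passed the test, with 4 crypt channels (circles) and 4 organoid channels (triangles) each, ordered by their ratio. Crypt and organoid channels do not overlap for any of the 14, and Lcp1 alone is higher in organoids. The test that chose these genes favours channels that lie apart, so this is a description. Some genes that did not pass, such as Lck and Ptprc, do not overlap either, and the share over all genes tested is not given here. Signals of different genes come from different probes and are not to be ranked against each other.

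For the T cell receptor complex, 2 of 3 CD3 chain genes fell. Cd3g and Cd3d, which encode the gamma and delta chains of CD3, fell from crypt signals above background to organoid signals not well above background. Their folds are therefore taken against a floor. The crypt mean is set against an organoid mean in which no array counts for less than its dimmest detected probe. For Cd3g and Cd3d this floor raised only the array of mouse 2 in Cy3, so the fold stays close to the ratio without it. Such a fold belongs to the mean and is not a smallest possible fall. With organoid RNA in Cy3 alone the ratios were -0.68 for Cd3g and -0.28 for Cd3d. Cd3g (chromosome 9, 44781716 to 44782300) was 2.00-fold lower against this floor, and its ratio without the floor passed (limma adjusted p = 0.0119). Its signals were 8.10 to 8.78 in crypts and 7.0 to 7.72 in organoids. Cd3d (chromosome 9, 44794171 to 44794402) was 1.47-fold lower against the floor, and its ratio without the floor passed (limma adjusted p = 0.0469). Signals of Cd3d were 7.63 to 8.05 in crypts and 7.04 to 7.49 in organoids. Cd3d lost its call in 5 of 12 alternatives, and Cd3g in 2 of 12. For Cd3d the limma adjusted p ran from 0.0129, in a fit that took the 4 arrays as independent, to 0.551. Cd3e, the epsilon chain gene, gave ratios of -0.08, -0.03, 0.37 and 0.07. The tissues overlapped for Cd3e, at 8.07 to 8.52 in crypts and 8.29 to 8.44 in organoids (0.08 ± 0.19, limma adjusted p = 0.775). The other Cd3e probe was well above background in no channel of either tissue and was not tested. Whether the chains differed from each other was not tested.

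Surface receptors of T and NK cells were divided as well. Cd7, a glycoprotein of T and NK cells (chromosome 11, 120898068 to 120898127), had ratios of -2.08, -0.45, -1.32 and -0.93. Signals of 8.44 to 9.31 in crypts lay above those of 7.24 to 7.99 in organoids, all of them well above background. Cd7 was 2.29-fold lower (-1.19 ± 0.10, limma adjusted p = 0.00876), and the deposited matrix gave -2.41. Il2rb, the shared receptor chain for interleukin-2 and interleukin-15, fell to -0.70 ± 0.16 (limma adjusted p = 0.0376), with -2.10 in the matrix. Il2rb was marked in 2 of 4 organoid channels and lost its call in 5 of 12 alternatives (limma adjusted p from 0.0189 to 0.508). Cd8a, the alpha chain of the CD8 coreceptor, was negative on all 4 arrays but did not pass (-0.50 ± 0.14, limma adjusted p = 0.0833). Its dimmer tested probe read -0.91, the mean over both tested probes passed, and the matrix gave -1.57.

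Cd5, an inhibitory receptor of T cells, was centred on 0. Its ratios were -0.13, -0.04, 0.16 and 0.03, over signals of 7.97 to 8.25 in crypts and 7.92 to 8.28 in organoids (limma adjusted p = 0.988). The adhesion receptor gene Cd2 and the NK and intraepithelial lymphocyte receptor gene Cd160 were each well above background in 2 of 4 crypt channels and were not tested. Cd2 signals were 7.47 to 7.56 in crypts and 7.42 to 7.55 in organoids, and those of Cd160 were 7.43 to 7.70 and 7.31 to 7.56. Neither gene separated the tissues.

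The kinases that act below the T cell receptor did not pass. Lck, the SRC family kinase that phosphorylates CD3 chains, had ratios of -0.35, -0.13, -0.27 and -0.32. Crypt signals of 8.50 to 8.68 lay just above organoid signals of 8.18 to 8.4, and the difference did not pass (-0.27 ± 0.04, limma adjusted p = 0.261). Zap70, the kinase that docks on phosphorylated CD3, read -0.30 ± 0.09 (limma adjusted p = 0.217). In the deposited matrix they stood at -0.50 for Lck and -0.90 for Zap70.

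Among B and plasma cell markers, the IgA heavy chain gene Igh-2 and the J chain gene Igj fell. Of 7 tested, 2 fell, 0 rose and the median was -0.26. Igh-2, the heavy chain constant region of IgA (chromosome 12, 114497243 to 114497302), had ratios of -2.50, -1.50, -1.99 and -2.03. Crypt signals of 10.11 to 10.68 lay above organoid signals of 8.13 to 8.61. Igh-2 was 4.01-fold lower in organoids (-2.0 ± 0.01, limma adjusted p = 0.00276). A neighbouring probe of the same transcript read -2.34, whereas a probe annotated with the same name but placed elsewhere on chromosome 12 was above background in 1 channel of each tissue and read 0.04. Probes of immunoglobulin constant regions can share sequence with other loci, so their gene assignment is uncertain.

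Igj encodes the J chain that links IgA and IgM into polymers (chromosome 5, 88949919 to 88949978). Its ratios were -1.25, -0.26, -1.17 and -1.03, and its signals were 7.85 to 8.26 in crypts and 6.92 to 7.59 in organoids. No organoid channel was well above background, and against the floor used for Cd3g the fall was 1.74-fold. The ratio without the floor passed (limma adjusted p = 0.0223). Without the filter on dim probes Igj did not pass.

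Igh-6, the heavy chain constant region of IgM, had ratios of -0.40, -0.13, -0.19 and -0.31. Crypt signals were 8.26 to 8.54 and organoid signals 8.13 to 8.23, and the gene did not pass (-0.26 ± 0.01, limma adjusted p = 0.273). Its 3 probes lie at separate places, 1 of them on chromosome 6, so they cannot all stand for the same locus. In the matrix Igh-6 read -0.53.

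Cd79a and Cd79b encode the signalling chains of the B cell receptor. Cd79a had ratios of -0.13, 0.02, -0.09 and 0.04, with overlapping signals of 7.57 to 7.72 in crypts and 7.44 to 7.65 in organoids (limma adjusted p = 0.897). It was above background in all 4 organoid channels and in 3 crypt channels. Cd79b had ratios of -0.32, 0.02, -0.45 and -0.36 (-0.28 ± 0.18, limma adjusted p = 0.278). Only the Cy3 array of mouse 1 gave Cd79b above 0, and the tissues overlapped, at 8.58 to 8.81 in crypts and 8.29 to 8.59 in organoids.

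Cr2, a complement receptor of B cells and follicular dendritic cells, had ratios of -0.13, -0.01, 0.16 and 0.21. Its signals overlapped in full, at 7.64 to 7.89 in crypts and 7.66 to 7.89 in organoids (0.06 ± 0.18, limma adjusted p = 0.848). Ms4a1, the CD20 gene of B cells, was above background in 2 crypt channels and no organoid channel and was not tested. Its signals were 7.18 to 7.35 in crypts and 7.18 to 7.21 in organoids.

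Pou2af1, a coactivator of octamer-binding factors in B cells, was positive on every array. Its ratios were 0.33, 0.17, 1.92 and 1.36, so that mouse 1 averaged 0.25 and mouse 2 averaged 1.64. Organoid signals of 8.82 to 10.13 lay above crypt signals of 8.21 to 8.65. The mice lay far apart and the gene did not pass (0.95 ± 0.99, limma adjusted p = 0.145).

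Myeloid markers gave 1 call among 6 tested, a fall of Lyz2, and a median of -0.19. Lyz2, the lysozyme of macrophages and granulocytes (chromosome 10, 116714450 to 116714509), had ratios of -2.35, -2.55, -2.06 and -2.32. Signals were 15.73 to 16.19 in crypts and 13.18 to 13.95 in organoids. This probe was 4.99-fold lower in organoids (-2.32 ± 0.18, limma adjusted p = 0.00243) and well above background in every organoid channel. The second Lyz2 probe, whose sequence is given above, had signals of only 7.74 to 8.06 in crypts and 7.21 to 7.64 in organoids and read -0.59. Lyz2 and Lyz1, the lysozyme gene of Paneth cells in the crypt epithelium, are near-identical neighbours, so the bright signal cannot be assigned to Lyz2 alone.

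The other macrophage and monocyte genes did not pass. Cd14, the lipopolysaccharide coreceptor, had ratios of -0.25, 0.05, -0.50 and -0.18, with 9.28 to 10.06 in crypts and 9.24 to 9.73 in organoids. Cd68, a lysosomal glycoprotein of macrophages, had -0.06, 0.02, -0.51 and -0.31, with 7.80 to 8.10 in crypts and 7.59 to 7.91 in organoids. Both ratios were lower in mouse 2 than in mouse 1, and the signals overlapped between tissues (limma adjusted p = 0.381 for Cd14 and 0.439 for Cd68).

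Csf1r, the receptor for macrophage colony-stimulating factor, had ratios of -0.23, 0.01, -0.31 and -0.07 (-0.15 ± 0.06, limma adjusted p = 0.538). Its signals were 7.77 to 8.25 in crypts and 7.57 to 7.94 in organoids. Fcer1g, the signalling chain of Fc receptors, had ratios of -0.23, -0.11, -0.09 and -0.22, over 8.45 to 8.79 in crypts and 8.33 to 8.58 in organoids (limma adjusted p = 0.487). Both genes overlapped between the tissues.

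The complement genes stood near 0. C1qb, a chain of the C1q recognition molecule, had ratios of -0.25, -0.05, 0.23 and 0.13 (0.01 ± 0.23, limma adjusted p = 0.968), with 8.38 to 8.69 in crypts and 8.33 to 8.64 in organoids. C1qa, its partner chain, was above background in 2 channels of each tissue and was not tested, at 7.27 to 7.46 in crypts and 7.41 to 7.55 in organoids. Tyrobp, the adaptor of myeloid and NK receptors, was above background in 3 crypt channels and no organoid channel, at 7.47 to 7.90 in crypts and 6.92 to 7.59 in organoids, and was not tested. For Emr1 the channels read 7.17 to 7.40 in crypts and 7.12 to 7.33 in organoids, all at background.

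Of the 10 genes shared by most leukocytes, all tested, 2 fell and 1 rose, with a median of -0.41. For 4 of the 10 the crypt channels alone met the filter, and the median was -0.19 over those above background in all 8 channels, -0.19 with organoid RNA in Cy3 alone, -1.08 with the scanner software's ratio and -1.11 in the deposited matrix. Srgn, the granule proteoglycan serglycin (chromosome 10, 61957219 to 61957278), had ratios of -1.90, -0.37, -1.52 and -1.21. Crypt signals of 7.98 to 8.58 lay above organoid signals of 6.68 to 7.61, none of which was well above background. Against the floor used for Cd3g, Srgn was 2.08-fold lower in organoids, and its ratio without the floor passed (limma adjusted p = 0.00872). Cd52, a small membrane-anchored glycoprotein of lymphocytes (chromosome 4, 133649505 to 133649564), had ratios of -1.42, -0.18, -1.06 and -0.72. Against the same floor Cd52 was 1.62-fold lower, and its ratio without the floor passed (limma adjusted p = 0.0199). Signals of Cd52 were 7.61 to 8.21 in crypts and 6.78 to 7.43 in organoids.

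Ptprc, the CD45 phosphatase carried by nearly all leukocytes, was lower on each array but did not pass (-0.70 ± 0.33, limma adjusted p = 0.0606). Its signals of 8.03 to 8.66 in crypts and 7.09 to 7.73 in organoids were apart, and its arrays ranged from -1.57 to -0.29. With a normexp offset of 16 Ptprc passed, and the matrix gave -2.0. Ptpn22, a phosphatase that restrains antigen receptor signalling, had ratios of -0.22, -0.07, -1.50 and -1.61. Mouse 1 thus averaged -0.15 and mouse 2 averaged -1.55, and the gene did not pass (-0.85 ± 0.99, limma adjusted p = 0.183).

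Among the actin regulators 1 gene rose and the others did not pass. Lcp1, the leukocyte actin-bundling protein L-plastin (chromosome 14, 75630210 to 75630269), had ratios of 1.46, 1.23, 1.54 and 1.73. Organoid signals of 11.10 to 11.22 lay above crypt signals of 9.49 to 9.96. Lcp1 was 2.81-fold higher in organoids (1.49 ± 0.21, limma adjusted p = 0.00618), its second probe read 1.01, and it is the only tested gene of the list that rose.

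Coro1a, an actin-binding protein of T cells, had ratios of -0.91, -0.13, -0.51 and -0.37, with 8.0 to 8.42 in crypts and 7.51 to 7.88 in organoids. It did not pass on the probe shown (-0.48 ± 0.05, limma adjusted p = 0.0828), but its other probe read -0.93 and the mean over both passed. In the matrix Coro1a read -1.20 and passed. Rac2, a GTPase of blood cells, had ratios of -0.67, -0.11, -0.19 and -0.13 (limma adjusted p = 0.277), and the matrix gave -0.58. Rac2 signals were 8.24 to 8.70 in crypts and 8.03 to 8.22 in organoids, with mouse 1 in Cy5 apart from the other arrays.

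Was, the actin-nucleation promoter lost in Wiskott-Aldrich syndrome, had ratios of -0.22, -0.08, 0.06 and -0.17 (limma adjusted p = 0.685), over 8.26 to 8.54 in crypts and 8.30 to 8.37 in organoids. Fyb, an adaptor that links T cell activation to adhesion, had ratios of -0.35, -0.09, 0.29 and 0.20, negative in mouse 1 and positive in mouse 2. Its tissues overlapped, at 8.63 to 8.91 in crypts and 8.56 to 8.94 in organoids (limma adjusted p = 0.973). Selplg, the P-selectin ligand, had ratios of -0.73, -0.13, -0.36 and -0.12, with 7.86 to 8.32 in crypts and 7.59 to 7.76 in organoids. It did not pass (-0.33 ± 0.13, limma adjusted p = 0.19), its second probe read 0.08 and its matrix value was -1.01. Of 12 further probes of the tested genes that also met the filter, 11 had the sign of the probe shown, and Selplg was the exception. Some of the 12 met it through the crypt channels alone, as for Nkg7 and Fcer1g, so a negative sign was built in there. Probes that missed the filter are not in this count, such as the Igh-2 probe that read 0.04.

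Cytip, an adaptor that binds cytohesin in activated lymphocytes, was present under the older name Pscdbp. Its ratios were 0.42, 0.27, 1.16 and 1.03, positive on every array and larger in mouse 2. Signals were 8.43 to 9.12 in crypts and 9.36 to 9.59 in organoids, and the gene did not pass (0.72 ± 0.53, limma adjusted p = 0.0973).

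For the 13 genes that fell the SD between mice was at most 0.24, and all were negative on all 4 arrays. The test that chose them favours a small SD, so this is a description. The median over the 36 genes was -0.33 in mouse 1 and -0.40 in mouse 2. The largest gaps between mice were those of Ptpn22, at -1.41 (mouse 2 minus mouse 1), and Pou2af1, at 1.39. With 2 arrays of the same RNAs per mouse, a difference between mice cannot be tested.

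**Figure D3:**
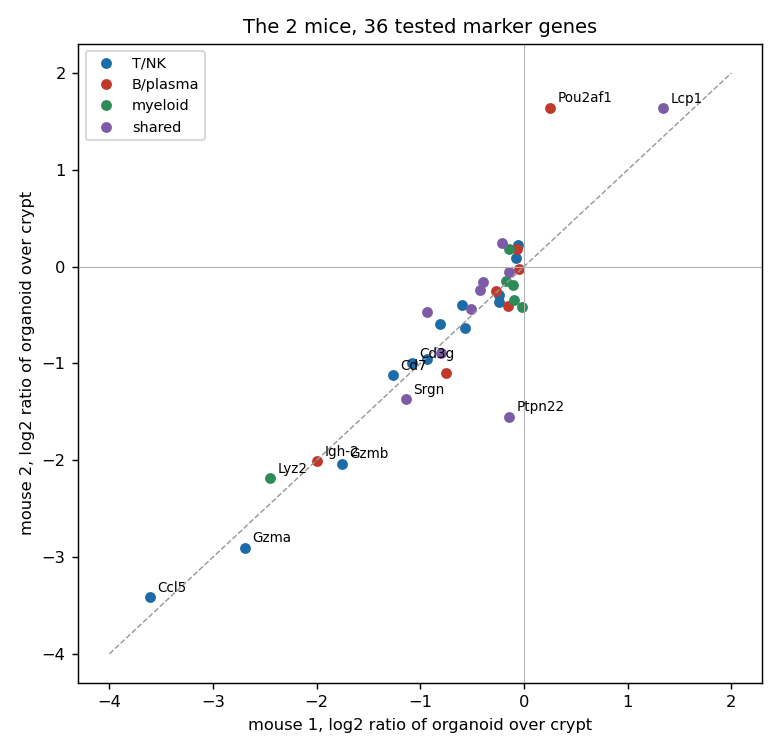
Log2 ratio of organoid over crypt in mouse 2 (vertical axis) against mouse 1 (horizontal axis), each the mean of 2 dye-swapped arrays, for the 36 tested marker genes coloured by lineage; the dashed line marks equal values. Most genes lie near the line, while Ptpn22 at -0.15 and -1.55 and Pou2af1 at 0.25 and 1.64 lie away from it.

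The dye orientation moved with the size of the falls. On the array of mouse 1 with organoid RNA in Cy3, the median over the 36 genes was -0.13, against -0.55, -0.45 and -0.34 on the other arrays. For 12 of the 13 genes that fell, that array gave the ratio nearest to 0, and Lyz2 was the exception. With organoid RNA in Cy3 alone 4 genes fell (Ccl5, Gzma, Igh-2 and Lyz2), and with it in Cy5 alone 13 fell. The part of the dye in these sizes was not tested beyond these values. Averaging the swapped arrays balances the dyes within each mouse.

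The size of the falls also moved with the background correction. By its construction, an offset of 50 added to both dyes draws the ratios of dim spots towards 0. The deposited matrix, whose background correction is not stated, gave larger falls for the dim genes. Cd7, above background in every channel, went from -1.19 to -2.41 and Coro1a from -0.48 to -1.20. Ccl5, also above background in every channel, went from -3.51 to -4.23, while Lyz2 stood at -2.36 against -2.32. For Srgn, Cd52, Igj, Cd3g and Cd3d no organoid channel was well above background, so neither way of processing gives the size of their fall. The number of falling genes was 14 in the matrix and 13 here. Centring each array on its median in place of loess left 5 falling genes (Ccl5, Gzma, Gzmb, Igh-2 and Lyz2). Ratios of genes that lost their call there moved little, as for Cd7 at -1.11 and Nkg7 at -0.87. Cd3d and Il2rb also lost their calls without background subtraction, without the filter on dim probes and when the mouse entered as a random block of the 4 arrays.

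**Figure D4:**
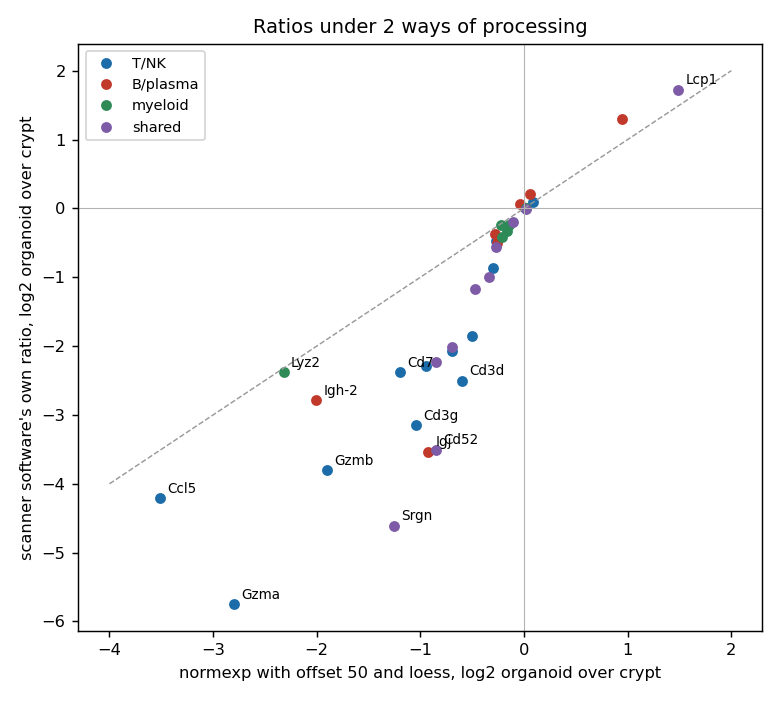
Log2 ratio of organoid over crypt computed by the scanner software (vertical axis) against the ratio after normexp with an offset of 50 and loess (horizontal axis) for the 36 tested marker genes, coloured by lineage; the dashed line marks equal values. Genes with dim organoid channels such as Gzma, Srgn, Igj and Cd52 lie far below the line, those of Srgn, Igj and Cd52 resting on organoid signals not well above background, and Lyz2 lies close to it.

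Further leukocyte genes outside the list were counted for comparison. Of 130 on the array 43 were tested, 5 of them fell and 1 rose, and their median was -0.15. Of the 130, 67 were above background in no organoid channel and 39 in no crypt channel, against 10118 and 8818 of all 28632 gene names. By lineage, 3 of 12 tested T and NK genes fell, with a median of -0.16. For 2 of these 12, and 6 of the 43, the crypt channels alone met the filter. A low value was thus built into these counts and medians. The lowest were Klrd1, the CD94 chain of NK receptors, which was marked in all crypt and no organoid channels (limma adjusted p = 0.0125), and Itgae, the integrin chain that holds lymphocytes in the epithelium, at -0.89 ± 0.08 (limma adjusted p = 0.0181). Cd4, the coreceptor of helper T cells, was the highest at 0.05 ± 0.07.

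Other B and plasma cell genes gave no call in 6 tested, with a median of -0.04. The lowest was the light chain gene Igl-V1 at -0.52 ± 0.56, and the highest was Blnk, an adaptor of B cell receptor signalling, at 0.49 ± 0.24. Of 7 other myeloid genes tested 1 fell, Ctss, the lysosomal protease cathepsin S, at -1.25 ± 0.37 (limma adjusted p = 0.0155), and the median was -0.05. Of 18 other shared genes 1 fell and 1 rose, with a median of -0.19. Dock8, an exchange factor for CDC42, was at -0.86 ± 0.28 (limma adjusted p = 0.0304) and the kinase gene Stk17b at 0.76 ± 0.26 (limma adjusted p = 0.0397).

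Markers of the other cells in such preparations were set beside them. Of 20 epithelial genes, all tested, 8 fell and 1 rose, with a median of -0.45, and their summed linear signal was 817095 to 915369 in crypt and 569875 to 707230 in organoid channels. The epithelial list was led downwards by Krt20, a keratin of mature enterocytes, at -2.75 ± 0.03, and upwards by Krt18, a simple-epithelium keratin, at 1.26 ± 0.36. Of 7 tested stromal and vessel genes 1 fell, Acta2, the smooth muscle actin, at -0.66 ± 0.01 (limma adjusted p = 0.0363), and the median was 0.05. Summed stromal signal was 9427 to 12658 in crypts and 7391 to 8418 in organoids. None of the 3 tested red cell genes passed, and their median was 0.09. The part of these other cell types in the leukocyte values was not tested.

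**Figure D5:**
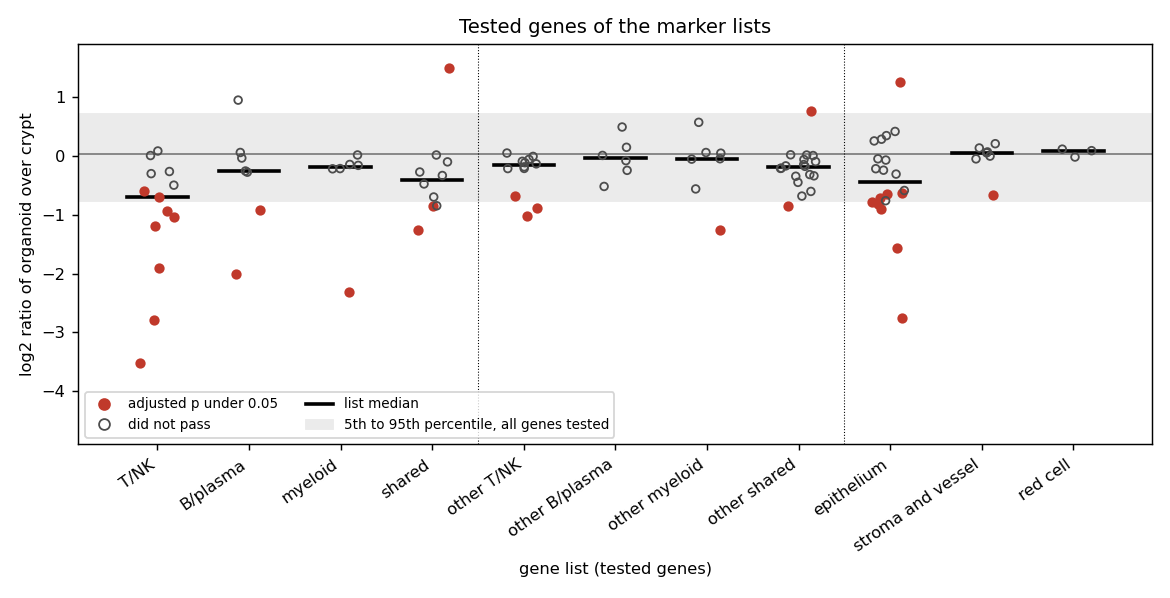
Log2 ratio of organoid over crypt (vertical axis) for the tested genes of each list, with filled points for genes that passed, open points for the others, bars for list medians, and a band from the 5th to the 95th percentile of all genes tested (-0.77 to 0.71). The first 4 lists are the marker genes described above, the next 4 further leukocyte genes and the last 3 other cell types; 8 of the 13 T and NK genes were tested through the crypt channels alone and all 20 epithelial genes are above background in every channel, so their medians of -0.70 and -0.45 are not alike in selection.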

How the data were processed

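Each deposited scanner file gives linear intensity values, as mean spot signal and median local background per dye, and the scanner software's log10 ratio of Cy5 over Cy3, read with Agilent Feature Extraction 10.2.1.3 per the file headers (9.5.3 per the submitters' processing notes). Each also holds the scanner's above-background and outlier marks, per the file headers. The deposited matrix, set against the scanner ratios, held log2 ratios of Cy5 over Cy3 (r from 0.978 to 0.991) with column medians of 0. The centring step was not given in the sources used here.

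In limma 3.58.1 (R 4.3.3), background was corrected by normexp (offset 50) and each array loess-normalized, giving controls a weight of 0. Outlier-marked spots were dropped and replicate spots averaged. The dye labels set the sign of each ratio, organoid against crypt. Of 41174 probes 21926 were tested, and the brightest tested probe stood for a gene. The 2 arrays of each mouse were averaged and both mouse means compared with 0 by lmFit and eBayes (two-sided, prior degrees of freedom 4.16), Benjamini-Hochberg over 15541 genes. Channel signals are after loess and Aquantile. Probes whose file name was in a gene list kept that name. The others were named by RefSeq accession where matched, and by the file otherwise (24844 of all 41174 matched, gene table of GRCm38.p6). Positions are mm9, per the files.

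The marker genes and all gene lists were chosen with earlier results of these data known, so no list was tested. An item of the further leukocyte lists is not reported here. Per-array values are given for the 3 lowest and the highest gene of each lineage, for genes that rose and for genes above background in all organoid channels. The fit was tested on simulated data. Alternatives covered background, normalization, filter, probe choice, dye, mouse and block.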

Additional observations from a re-analysis of the deposited data

Results flagged for a closer look

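Rac2 was, of 36 tested marker genes, the only gene in which an array stood apart from the others by Dixon's criterion for 4 values (chance marks about 1 gene in 20). The array of mouse 1 with organoid RNA in Cy5 gave -0.6709 on the log2 scale, against -0.11, -0.19 and -0.13 on the others.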

How the results depend on the processing

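Over the alternatives run, no marker gene that passed changed sign, and Lcp1 was the only one that rose in each. Ccl5, Igh-2 and Lyz2 passed in all 13 alternatives with a test, and Gzma in all 12 that could test it. The number that fell, 13, became 5 with median centring only, 4 when all 8 channels had to be above background (22 genes tested) and 4 with organoid RNA in Cy3 alone; elsewhere it was 10 to 15. With the mouse as a random block, 11 fell. The fit of the 4 arrays with a dye effect, where 15 fell, took the technical repeats of a mouse as independent. The median of -0.32 became -0.40 with an offset of 16, -0.93 with the scanner's own ratio, -0.96 in the deposited matrix, -0.22 with all 8 channels above background, -0.49 with organoid RNA in Cy5 alone and -0.22 in Cy3 alone. With mouse 1 taken from its Cy5 array alone, an alternative chosen after seeing the data, it was -0.45. Leaving out a mouse gave -0.40 and -0.33, with no test possible. By the scanner's positive-and-significant mark, 35 in place of 23 genes were detected in all organoid channels and 41 in place of 35 in all crypt channels. The share of all gene names under that mark is not given here, so these counts have nothing to be set against. The causes of these shifts were not tested. Crypt and organoid RNA share each array, so every ratio is within a mouse and the test is paired throughout. For 5 of the genes that fell the fold is taken against a floor, because no organoid channel was well above background.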
